A study of Mus musculus with 4 samples.

Results

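In brain metastasis, circulating monocytes enter the tissue through the receptor Ccr2 and turn into macrophages or dendritic cells there. The wells described here are those of the bone marrow-derived macrophage (BMDM) sort that held Ccr2 transcripts but almost none of 4 macrophage genes and 8 dendritic cell genes. A well holds 1 sorted cell, and its transcripts are counted by unique molecular identifiers (UMIs). A kept well had at least 1000 counts outside mitochondrial and spike-in (ERCC) rows and an ERCC share under 50%. A gated well is a kept well with at least 1 UMI of Ccr2, at most 2 UMIs of Mrc1, Pf4, Cbr2 and Folr2 together, fewer than 2 of Cd209a and Cd7, fewer than 3 of Ccr7, Ccl22 and Cacnb3, and fewer than 2 of Xcr1, Clec9a and Itgae. Of 496 kept BMDM wells 106 passed, of 804 kept wells in all 4 plates of the study.

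The mice were Balb/C athymic nude animals (CAnN.Cg-Foxn1nu/Crl), which lack a thymus and therefore most T cells, and they carried lung cancer brain metastases. The 2 BMDM plates differ in whole brain radiation therapy (WBRT): 1 plate had none, and the other carries a label giving 5 fractions of 2 Gy and the term d3. The plate without WBRT is also labelled tumor stage small and the plate with WBRT not stratified. Stage, plate and radiation therefore cannot be told apart. Each condition is 1 plate with no animals named, so no test was possible, and every interval below is a 95% interval for counting error only. The other 2 plates hold microglia, the resident macrophages of the brain, and 0 of 157 and 1 of 151 kept wells there would pass the gate, against 46 of 234 BMDM wells without WBRT and 60 of 262 with WBRT.

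Monocytes released from the bone marrow follow the chemokine Ccl2 through Ccr2. Classical monocytes carry Ly6c2, Vcan and Chil3. As they mature in tissue they lose these and gain complement C1q and Apoe (macrophages) or high MHC class II (dendritic cells). Flt3 and Zbtb46 are genes of dendritic cells. Type I interferon drives a separate program of antiviral genes such as Rsad2, the Ifit family and Isg15 in any of these cells.

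The gated wells held 219415 transcripts without WBRT and 435633 with WBRT, with medians of 3939 (1165 to 13183) and 7482 (1842 to 18713) per well. In the plate without WBRT the median depth lay close to that of Ccr2-negative wells (3952) and below that of dendritic-marked wells (4478). With WBRT it lay below that of macrophage-marked wells (10362). These other classes were defined by the genes of the gate after values had been seen. Dendritic-marked wells pass any of the 3 dendritic limits, macrophage-marked wells exceed the macrophage limit alone, and Ccr2-negative wells pass every limit but have no Ccr2 UMI. The mitochondrial share of gated wells had a median of 8.53% without WBRT and 6.58% with WBRT.

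The gated wells made up 19.7% (14.8 to 25.3) of kept BMDM wells without WBRT and 22.9% (18.0 to 28.5) with WBRT. In the counts as deposited, the wells around them differed far more. Without WBRT there were 15 macrophage-marked, 99 dendritic-marked and 74 Ccr2-negative wells. With WBRT there were 161, 19 and 22. Ccr2 itself was seen in 103 of 234 wells (44.0%, 37.6 to 50.6) without WBRT and in 205 of 262 (78.2%, 72.8 to 83.1) with WBRT. Of those Ccr2-positive wells, 10 (9.71%, 4.75 to 17.1) exceeded the macrophage limit without WBRT and 128 (62.4%, 55.4 to 69.1) with WBRT. The limits count UMIs, so the share of gated wells moves with depth. When every kept well was cut at random to 1000 UMIs, 55 wells passed without WBRT (23.5%, 18.2 to 29.5) and 113 with WBRT (43.1%, 37.1 to 49.4). Of the wells gated at full depth, 33 and 38 also passed when thinned. With a macrophage limit of 0 UMIs in place of 2, 28 and 18 wells passed (12% and 6.87%). The order and size of the 2 gated shares therefore depend on depth and on the macrophage limit.

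**Figure D1:**
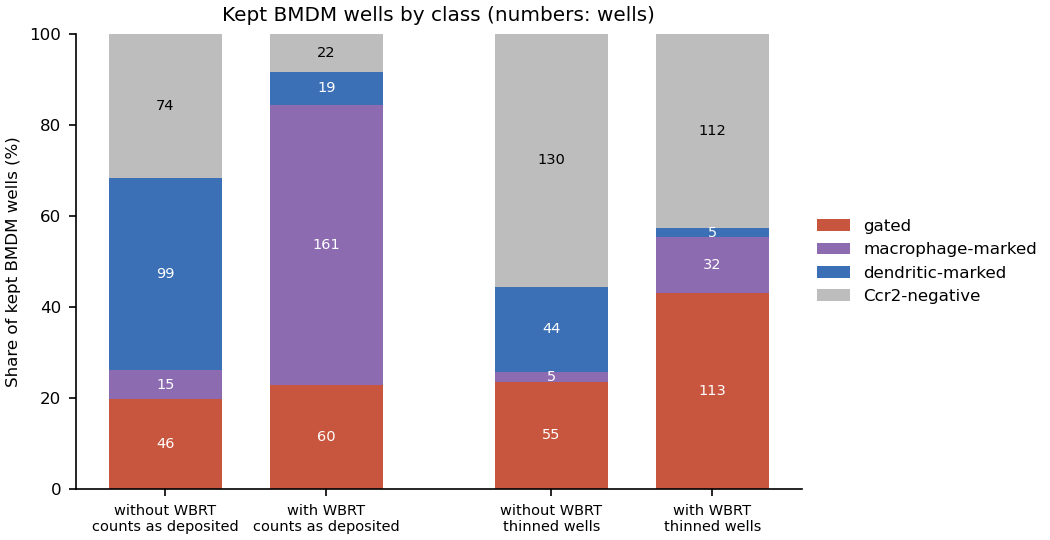
Share of kept BMDM wells (y axis, %) in each class, for the plates without and with WBRT, from counts as deposited and after thinning each well to 1000 UMIs; the numbers in the bars are wells. The gated share is 19.7% and 22.9% as deposited and 23.5% and 43.1% after thinning. Macrophage-marked wells go from 15 to 161 as deposited and from 5 to 32 after thinning.

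The 3 genes given as markers were present in the gate. Ccr2 (GRCm38 chromosome 9, 124101950 to 124113557, plus strand, protein coding) stood at 985 CPM (counts scaled to a total of 1e6 endogenous counts; 858 to 1125) in the summed gated wells without WBRT and 1532 CPM (1419 to 1654) with WBRT. Its level in single gated wells ran from 90.6 to 5406 CPM, with a median of 877, without WBRT and from 102 to 4247 CPM, with a median of 1426, with WBRT, so the plates overlap across nearly the whole range. Plac8, a small cysteine-rich protein of monocytes and plasmacytoid cells (chromosome 5, 100553725 to 100572245, minus strand), stood at 858 CPM without WBRT and 421 CPM with WBRT. It was not particular to the gate: dendritic-marked wells held 1199 and 1287 CPM. Ms4a4c, a membrane protein of the Ms4a family (chromosome 19, 11404770 to 11427246, plus strand), stood at 684 and 386 CPM, against 403 and 439 CPM in dendritic-marked wells. A Plac8 UMI was seen in 32 of 46 and 31 of 60 gated wells, and a Ms4a4c UMI in 39 and 40.

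The summed classical monocyte list, which holds Ccr2, was highest in the gated wells. Several of its defining genes were nearly missing, and macrophage genes outside the rule were high. The list's summed level was 4734 CPM in gated wells without WBRT, against 1657 CPM in macrophage-marked, 3888 CPM in dendritic-marked and 1460 CPM in Ccr2-negative wells. With WBRT it was 4958 CPM, against 3352, 4353 and 1331 CPM. The rule requires Ccr2, which gave 985 and 1532 CPM of the gated sums, more than their lead over dendritic-marked wells. A sum without Ccr2 was not taken, so the rank cannot be read apart from the rule. Of the 18 genes, 15 and 16 had counts. Ly6c2 stood at 77.5 CPM without WBRT, on 17 UMIs in 5 of 46 wells, and at 4.59 CPM with WBRT, on 2 UMIs. Vcan, a matrix proteoglycan, stood at 0 and 11.5 CPM, and Chil3 and Cd177 had no counts in gated wells of either plate. In contrast Apoe, a lipid carrier of tissue macrophages, stood at 28367 CPM without WBRT and 27219 CPM with WBRT, against 8228 and 3744 CPM in dendritic-marked wells and 35105 and 37378 CPM in macrophage-marked wells. The complement chain gene C1qb stood at 3039 and 2446 CPM, against 1223 and 318 CPM in dendritic-marked wells. Csf1r, a growth factor receptor of monocytes and macrophages, stood at 1470 and 1640 CPM, against 1239 and 1800 CPM in the other kept wells. The Fc receptor gene Fcgr1 stood at 1127 and 964 CPM. The summed level of a list of 20 macrophage differentiation genes was 53096 CPM in gated wells without WBRT, 75553 CPM in macrophage-marked and 15131 CPM in dendritic-marked wells. With WBRT the same sums were 51950, 73967 and 7649 CPM. The data thus go against the second part of the name, monocytes lacking macrophage markers. The wells hold at most 2 UMIs of the 4 genes of the rule together, and 28 of 46 and 18 of 60 hold none. They do hold C1q and Apoe, and they are called by their rule here. The genes of this check were chosen after their values had been seen.

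Of cell types outside monocytes and macrophages, microglia and dendritic cells left the largest traces in the gate. The microglial gene Tmem119 stood at 178 and 165 CPM in gated wells, against 514 and 583 CPM on the microglia plates. P2ry12 stood at 77.5 and 36.7 CPM against 336 and 466 CPM, and Sall1, a defining transcription factor of microglia, at 4.56 and 2.30 CPM against 121 and 70.9 CPM. The summed level of 14 microglia genes was 3007 and 2314 CPM in gated wells and 983 and 560 CPM in dendritic-marked wells. It was higher in macrophage-marked wells (4158 and 3509 CPM) and in Ccr2-negative wells (5270 and 3791 CPM). Flt3, the growth factor receptor of dendritic cells, stood at 50.1 and 32.1 CPM, against 301 and 280 CPM in dendritic-marked wells, and Zbtb46 at 0 and 2.30 CPM. All 7 B cell genes but 1, 8 and 9 of 11 neutrophil genes and 4 of 4 erythroid genes had no counts. The neutrophil genes summed to 178 and 232 CPM, with Csf3r at 105 and 135 CPM and Cxcr2 at 68.4 and 96.5 CPM. In Ccr2-negative wells that sum was 329 and 323 CPM. The natural killer and T cell list summed to 278 and 4.59 CPM, of which Ccl5 gave 260 and 4.59 CPM. The part of transcripts of other cells in these levels was not tested.

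**Figure D2:**
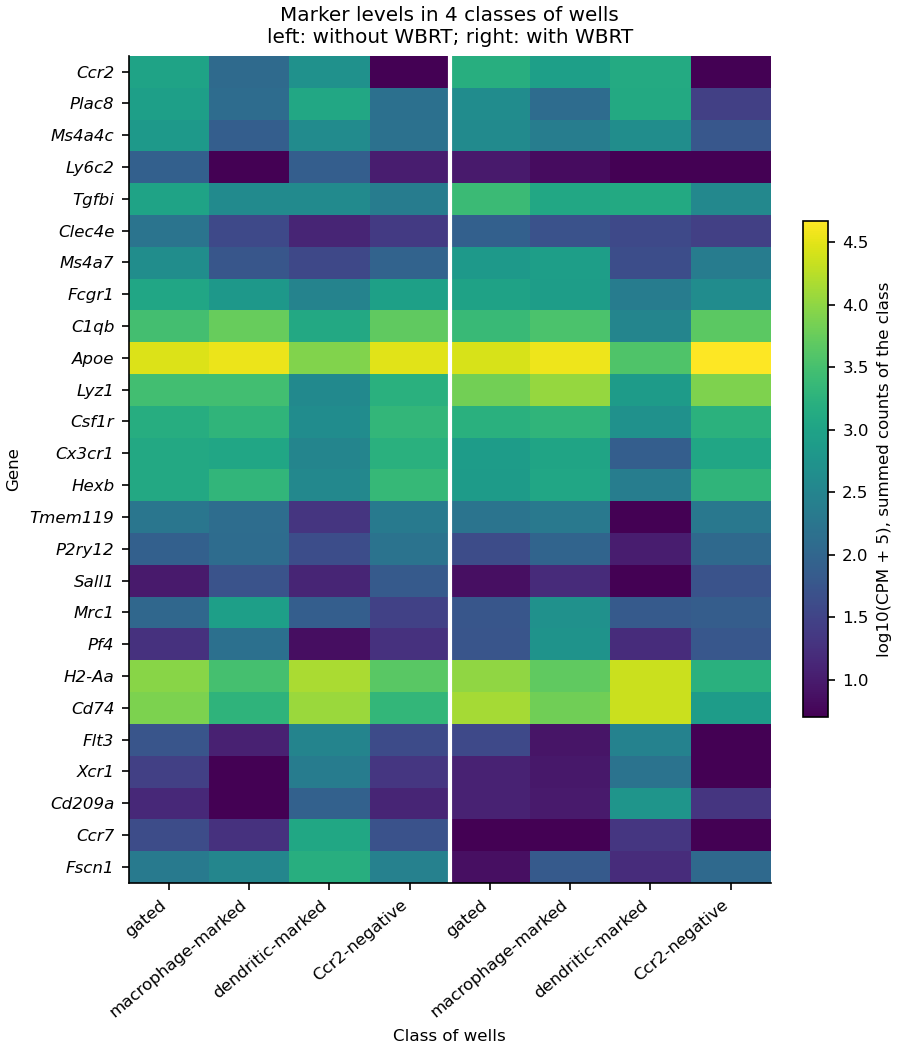
Level of 26 marker genes (rows) in the 4 classes of BMDM wells (columns), without WBRT on the left and with WBRT on the right; colour is log10(CPM + 5) of the summed counts of a class. Gated wells show Ccr2, C1qb, Apoe and H2-Aa together, while Ly6c2 is low throughout.

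The wells on either side of the macrophage limit held C1qb and H2-Aa at nearby levels. At the Ccr2 limit H2-Aa and Ms4a7 lay further apart, while C1qb did not. With WBRT, 20 gated wells had a macrophage sum of 2 and 20 Ccr2-positive wells just outside had a sum of 3. Ccr2 stood at 1363 CPM inside and 905 CPM outside, C1qb at 1827 and 2463 CPM, and H2-Aa at 7915 and 8990 CPM. Without WBRT 8 wells had a sum of 2 and 1 well a sum of 3, so that plate has no such edge. Of the gated wells, 11 without WBRT and 10 with WBRT held a single Ccr2 UMI. In these, H2-Aa stood at 8221 and 2696 CPM, against 9375 and 11291 CPM in wells with 2 or more and 4501 and 1623 CPM in the Ccr2-negative wells just outside. Ms4a7, a membrane protein of blood-derived macrophages, stood at 331 and 459 CPM with a single Ccr2 UMI, 479 and 713 CPM with 2 or more and 88.2 and 231 CPM outside. C1qb stood at 3861 and 3395 CPM with a single Ccr2 UMI and at 5018 and 4669 CPM outside. The wells with a single Ccr2 UMI had a median of 2819 transcripts with WBRT, the lowest of these sets.

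Within the gate, wells ran from MHC class II-rich to C1q- and Apoe-rich. MHC class II molecules present peptides to helper T cells. Their summed level per well ran from 5542 to 92532 CPM without WBRT, with a median of 28567, and from 2542 to 88209 CPM with WBRT, with a median of 33428. The sum of C1qa, C1qb and C1qc ran from 0 to 17945 CPM, with a median of 3866, without WBRT and from 298 to 23052 CPM, with a median of 2222, with WBRT. Both sums thus spanned more than an order of magnitude among wells of the same plate, and the plates overlapped.

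The 23 gated wells without WBRT at or above their plate's median of MHC class II were set beside the 23 below it, with no test, since the split was made on these wells. The upper wells held Ccr2 at 1308 against 769 CPM, Plac8 at 1581 against 373 CPM and Flt3 at 102 against 15.2 CPM. The lower wells held C1qa at 3365 against 773 CPM, Apoe at 38082 against 13866 CPM, the lysozyme gene Lyz1 at 4130 against 1231 CPM and the microglia and monocyte receptor gene Cx3cr1 at 1709 against 568 CPM. With WBRT the 30 upper and 30 lower wells differed in the same direction for each of these genes. Ccr2 stood at 1973 against 1012 CPM, Plac8 at 578 against 235 CPM, Flt3 at 55.1 against 5.00 CPM, C1qa at 867 against 1830 CPM, Apoe at 20301 against 35378 CPM and Lyz1 at 4144 against 9460 CPM. The matrix protein gene Tgfbi was higher in the upper wells of both plates, at 1285 against 793 CPM and 3506 against 1435 CPM. The median depth was 3677 against 4980 transcripts without WBRT and 8022 against 6816 with WBRT, so the depth differed in opposite directions. Across wells, Spearman's rho between C1q and Apoe was 0.72 (n = 46) and 0.65 (n = 60), between MHC class II and Apoe -0.51 and -0.36, and between MHC class II and C1q -0.38 and -0.26. The points share a plate and are shares of the same totals.

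**Figure D3:**
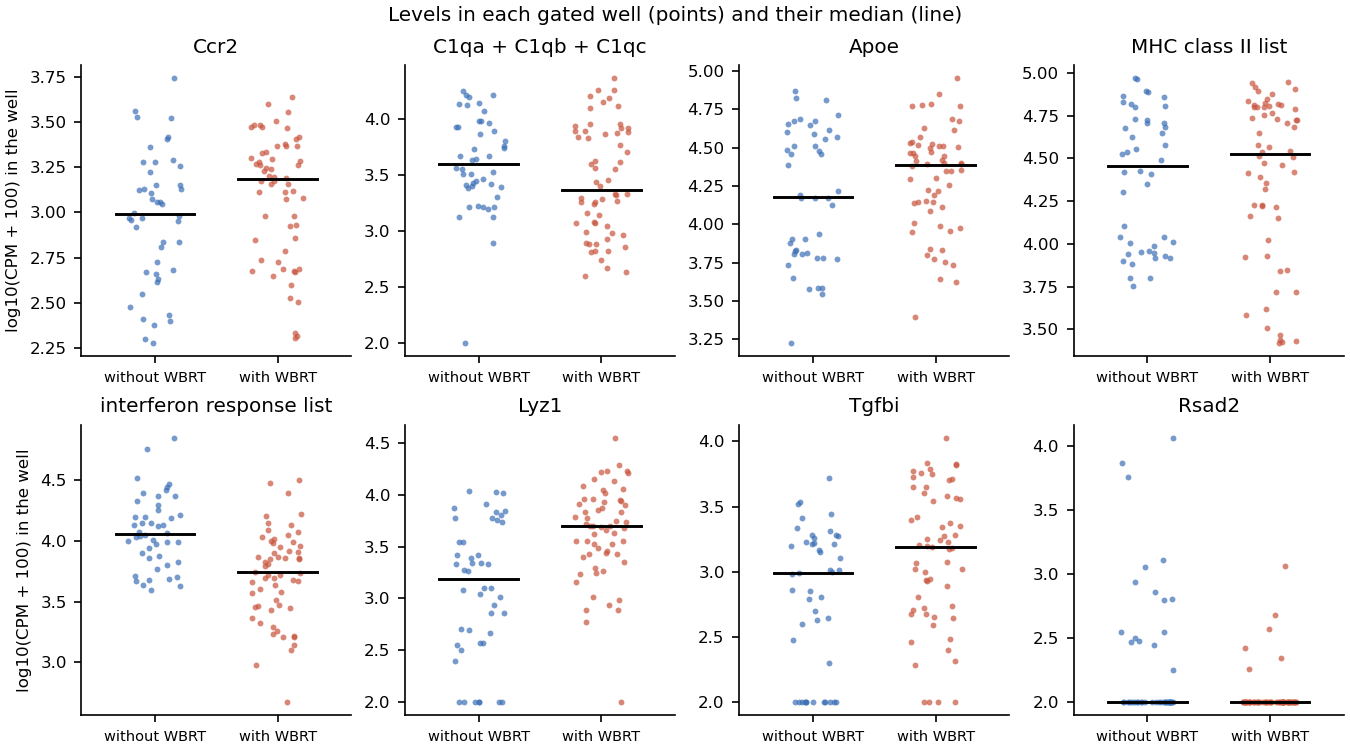
Level of 8 genes or gene sums in each gated well (points; y axis, log10 of CPM + 100) without and with WBRT, with the median as a line. The interferon response sum has a median of 11297 CPM without WBRT and 5396 CPM with WBRT, and Rsad2 is at 0 in 30 of 46 and 54 of 60 wells.

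Against the other kept BMDM wells, the gated wells held more Tgfbi, Trem1 and Ifit1 in both plates, and the other genes named as higher passed the size limit in 1 plate. The genes of the rule differ by construction, and all genes come from the wells that were gated, so these are descriptions. A gene was tested for size if it had at least 50 CPM in 1 of the 2 sums. It was called if the log2 ratio of CPM + 5 was at least 1 in size and the exact interval of the ratio left out 1. By this rule 392 of 3678 genes (10.7%) were called without WBRT, 205 higher (5.57%) and 187 lower (5.08%) in gated wells. With WBRT 131 of 3600 (3.64%) were called, 64 higher (1.78%) and 67 lower (1.86%). Tgfbi, called in both plates, stood at 990 CPM in gated and 334 CPM in other wells without WBRT, and at 2556 and 1143 CPM with WBRT. Trem1, an amplifying receptor of monocytes and neutrophils, stood at 105 and 22 CPM, and at 103 and 42.4 CPM. The fibronectin gene Fn1 stood at 379 and 152 CPM, and at 1016 and 659 CPM, the transglutaminase gene Tgm2 at 260 and 94.6 CPM, and at 558 and 320 CPM, and the fungal pattern receptor gene Clec7a at 383 and 166 CPM, and at 333 and 216 CPM. These 3 were called without WBRT and not with WBRT. Lower in gated wells of both plates were the dendritic cell gene Wdfy4 (223 and 447 CPM, then 43.6 and 104 CPM), the chemokine gene Ccl2 (114 and 274 CPM, then 62.0 and 147 CPM), and Cbfa2t3 and Id2, transcriptional regulators found in dendritic cells. Of these Ccl2 was called in both plates, Wdfy4 with WBRT alone and Cbfa2t3 and Id2 in neither.

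Which genes stood out depended on the wells the gate was set against. Ms4a7 stood at 443 CPM in gated wells without WBRT, against 53.2 CPM in macrophage-marked, 30.7 CPM in dendritic-marked and 88.2 CPM in Ccr2-negative wells. With WBRT the gated wells held 685 CPM and the macrophage-marked wells 828 CPM. The pattern receptor gene Clec4e stood at 164 CPM in gated wells without WBRT and at 7.67 to 33.2 CPM in the other 3 classes. With WBRT it stood at 78.1 CPM against 23 to 44.8 CPM. Of its 36 UMIs without WBRT, 23 came from 3 wells. Ace, the angiotensin-converting enzyme gene carried by nonclassical monocytes, stood at 82.1 and 23 CPM in gated wells and at most at 13.4 CPM in the other classes of both plates. The summed list of 14 nonclassical monocyte genes did not stand out in this way. Without WBRT it was 3541 CPM in gated, 3495 CPM in Ccr2-negative, 2458 CPM in macrophage-marked and 1634 CPM in dendritic-marked wells. With WBRT the same sums were 3000, 2462, 2987 and 1412 CPM.

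Between the plates, the gated wells with WBRT held less of the interferon response list and more of several wound healing genes and of both lysozymes, while macrophage differentiation genes lay on both sides. Of 18 tested genes of that list 9 were higher and 9 lower, 3 called higher and 1 lower, with a median log2 ratio of -0.00. Of 3850 genes tested, 499 were called (13%), 247 higher (6.42%) and 252 lower (6.55%) with WBRT. In the other kept BMDM wells 536 of 3684 genes were called (14.5%), 263 higher (7.14%) and 273 lower (7.41%). Among all genes tested in the gate, 1999 were higher and 1851 lower, with a median log2 ratio of 0.01, so the lists below can be read against a centre near 0.

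**Figure D4:**
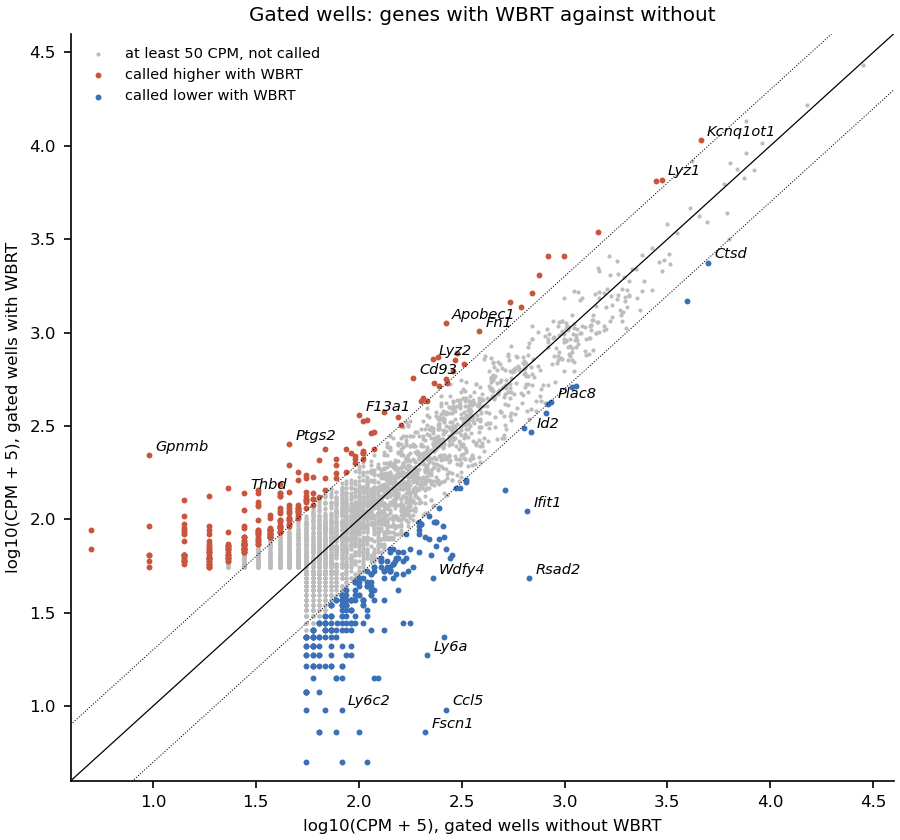
Summed level of each gene of at least 50 CPM in gated wells without WBRT (x axis) and with WBRT (y axis), both as log10(CPM + 5); coloured points were called higher (247) or lower (252) with WBRT, and dotted lines mark a 2-fold difference. Gpnmb, Ptgs2 and Apobec1 lie above the lines and Fscn1, Ccl5, Rsad2 and Ly6a below them.

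Interferon response genes were lower with WBRT nearly throughout. The list has 48 genes, 44 of which were tested, and 40 of the 44 were lower with a median log2 ratio of -0.79. Of them 17 were called lower and 0 higher (38.6% called, against 13% of all genes). The summed level per well ran from 3843 to 70099 CPM, with a median of 11297, without WBRT and from 374 to 31176 CPM, with a median of 5396, with WBRT. The ranges overlap, but the middle 50% of wells lay at 7137 to 17303 CPM without WBRT and at 2779 to 9050 CPM with WBRT.

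Interferon-responsive promoters often hold a site for the interferon regulatory factors or for the complex ISGF3 near the start of transcription, and 2 copies of GAAA with 2 bases of any kind between them are a simple form of it. Promoter windows of 300 bases (250 before and 50 after the start) came from RefSeq's table for GRCm38.p6. A match on either strand was found for 1079 of 27025 genes (3.99%), for 151 of the 2984 tested genes with a window (5.06%) and for 17 of the 31 tested interferon response genes with a window (54.8%). It was found for 7 of 12 of the interferon genes called lower and for 10 of 19 of those not called. Among genes called lower outside the list it was found for 14 of 184 (7.61%). A match describes the letters only, and where matches overlap each was counted. Stretches of 60 bases from 4 chosen interferon genes with a match before the start are shown. They run 5′ to 3′ on the strand of the gene, with the motif or its reverse complement in capitals. Cmpk2 and Irf7 were looked at too and gave no stretch, for want of a match or of a window. The 4 stretches therefore do not show how common the motif is.
Rsad2 (chr12:26456538-26456597, minus strand): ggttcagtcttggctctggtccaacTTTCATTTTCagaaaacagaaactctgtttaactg
Ifit1 (chr19:34640779-34640838, plus strand): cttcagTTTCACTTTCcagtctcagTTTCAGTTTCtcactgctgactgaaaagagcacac
Ifit3 (chr19:34583382-34583441, plus strand): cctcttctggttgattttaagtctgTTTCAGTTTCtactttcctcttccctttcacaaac
Isg15 (chr4:156200850-156200909, minus strand): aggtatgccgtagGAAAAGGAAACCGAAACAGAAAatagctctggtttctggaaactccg

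The Isg15 stretch holds 3 overlapping forward matches and the Ifit1 stretch 2 reverse matches. Rsad2, an enzyme that blocks viral replication (chromosome 12, 26442746 to 26456452), stood at 669 CPM (566 to 787) without WBRT and 43.7 CPM (26.3 to 68.1) with WBRT, 15.3-fold lower (9.49 to 26.2). Few wells carried it: 16 of 46 without WBRT, where 3 wells held 126 of 146 UMIs, and 6 of 60 with WBRT. Ifit1, which binds viral RNA (chromosome 19, 34640871 to 34650009), stood at 655 CPM (553 to 773) and 106 CPM (77.3 to 141), 6.2-fold lower (4.43 to 8.86), with 102 of 143 UMIs without WBRT in 3 wells. Ifit3 stood at 260 CPM against 64.3 CPM with WBRT, and the ubiquitin-like modifier gene Isg15 at 219 against 59.7 CPM. Irf7, the regulator that amplifies interferon production, stood at 419 against 257 CPM and was not called. An Isg15 UMI was seen in 15.2% of thinned wells without WBRT and 5.00% with WBRT, and an Ifit1 UMI in 21.7% and 6.67%.

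A few wells carried most UMIs of the highest genes and a smaller part of the list, still above their share of all transcripts. The 3 gated wells without WBRT highest in interferon genes had sums of 70099, 56172 and 32479 CPM and held 27.4% of the list's transcripts in 7.25% of all transcripts. They detected 39, 38 and 34 of the 48 genes. The 3 highest wells with WBRT had sums of 31176, 29641 and 24733 CPM. Without these 3 wells of each plate, a choice made after seeing the data, the list's median was -0.83. Single genes moved more: Rsad2 went from -3.79 to -1.81, Ifit1 from -2.58 to -1.44 and Cmpk2, the neighbour of Rsad2 on chromosome 12, from -2.37 to -1.19. Cxcl10, an interferon-induced chemokine, went from -3.48 to -1.0, and its 56 UMIs without WBRT had come from 5 wells.

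The interferon difference was not limited to gated wells. In the other kept BMDM wells the list had a median of -0.89 over 40 genes, with 18 called lower (of all genes there, 7.41% were). In macrophage-marked wells alone it stood at -0.03 over 28 genes, with 15 wells without WBRT. The list's summed level per well was still lower with WBRT there, with medians of 7488 CPM without WBRT and 4246 CPM with WBRT. In Ccr2-negative wells these medians were 7204 and 1956 CPM, and in dendritic-marked wells 8457 and 6601 CPM. Whether the gated wells differ from these was not tested. Genes of MHC class I, which are induced by interferon, were lower for 10 of 11 genes in gated wells (median -0.49), and 1 was called: Tap2, a subunit of the peptide transporter, at 59.2 CPM against 16.1 CPM with WBRT. H2-K1 stood at 1885 against 1244 CPM. Interferon-induced GTPases were lower for 6 of 7 genes (median -0.98), 3 of them called. The called share was 42.9% for these GTPases and 9.09% for MHC class I, against 13% of all genes.

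Among the markers of monocytes, some were lower and some higher with WBRT. Of 11 tested classical monocyte genes outside the rule 4 were called lower and 2 higher, with a median of -0.63. That is 54.5% called, against 13% of all genes. Plac8 (858 CPM, 739 to 988, against 421 CPM, 361 to 486) was 2.04-fold lower (1.66 to 2.51) with WBRT. Ly6c2 (77.5 against 4.59 CPM), S100a4, a calcium-binding protein of migrating cells (251 against 87.3 CPM), and Clec4e (164 against 78.1 CPM) were called lower too. Plac8 and Clec4e lie just past the size limit, at -1.02 and -1.03. Without the 3 wells of each plate highest in interferon genes Plac8 was -0.95, and without its top well of each plate Clec4e was -0.96, neither then called. Ms4a4c stood 1.77-fold lower (1.41 to 2.22) and was not called. Called higher were Fn1 and F13a1, a coagulation factor subunit made by monocytes and macrophages. F13a1 stood at 95.8 CPM (59.2 to 146) without WBRT and 358 CPM (304 to 419) with WBRT, 3.74-fold higher (2.36 to 6.22). An F13a1 UMI was seen in 8.70% of thinned wells without WBRT and 18.3% with WBRT. Plac8 and Ly6c2 are lower in the same plate as the interferon genes, and Ly6c2 and Ms4a4c are also members of that list.

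Genes of wound healing and alternative activation were mostly higher with WBRT. Of 14 tested, 12 were higher, 6 called higher and 1 called lower (50% called, against 13% of all genes), with a median log2 ratio of 0.47. In the other kept wells the median was 1.78 and in macrophage-marked wells 1.46. Fn1 stood at 379 CPM (301 to 469) without WBRT and 1016 CPM (922 to 1114) with WBRT, 2.68-fold higher (2.12 to 3.43). Its log2 ratio of 1.41 fell to 0.26, under the size limit, with a macrophage sum of 0. Tgfbi stood at 990 CPM (862 to 1130) and 2556 CPM (2407 to 2710), 2.58-fold higher (2.23 to 3.00). In single wells Tgfbi ran from 0 to 5148 CPM, with a median of 872, and from 0 to 10578 CPM, with a median of 1457. The scavenger receptor gene Stab1 stood at 128 CPM (84.8 to 184) and 372 CPM (317 to 434). Its log2 ratio went from 1.51 to 0.98 with a macrophage sum of 0, just under the size limit. Thbs1, a matrix glycoprotein, stood at 178 and 207 CPM and was not called. Perivascular macrophage genes outside the rule had a median of 0.30 over 5 genes, and the rule holds their defining genes down.

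Gpnmb, a glycoprotein of lipid-laden macrophages (chromosome 6, 49036546 to 49070929), had the highest ratio of the named genes, at 4.56 CPM (1 UMI) without WBRT and 216 CPM with WBRT, 47.5-fold higher (8.29 to 1890). Its 94 UMIs with WBRT came from 15 of 60 wells, 43 of them from 1 well. Macrophage-marked wells stood at 46.5 and 215 CPM, so the sum over gated wells with WBRT reached the same level, while the median gated well held 0 CPM. Ptgs2, the cyclooxygenase that makes prostaglandins, stood at 41.0 CPM (18.8 to 77.9) and 248 CPM (203 to 299), 6.05-fold higher (3.07 to 13.6), in 5 of 46 and 23 of 60 wells. In the other kept wells its log2 ratio was 0.82, against 2.46 in the gate, and the difference was not tested. With the gate applied after thinning the ratio of Ptgs2 was 0.88, under the size limit. Thbd, the anticoagulant receptor thrombomodulin, stood at 22.8 CPM (7.4 to 53.2) and 133 CPM (101 to 172) with WBRT, on UMIs of 2 and 13 wells. Mid1, a ubiquitin ligase gene, stood at 9.12 and 122 CPM, but 33 of 53 UMIs with WBRT came from 1 well. Its log2 ratio of 3.17 was 2.41 without the top well of each plate and 1.46 without the wells richest in the RNA Kcnq1ot1.

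Both lysozyme genes were higher with WBRT, while lysosome and phagocytosis genes as a list lay on both sides: 12 of 22 were higher and 10 lower, with a median of 0.03, 2 called higher and 1 lower (13.6% called, against 13% of all genes). Lyz1 (chromosome 10, 117287797 to 117292868) stood at 2967 CPM (2743 to 3204) without WBRT and 6583 CPM (6345 to 6829) with WBRT, 2.22-fold higher (2.04 to 2.42). Its median well stood at 1463 and 4868 CPM, and a UMI was seen in 63.0% and 88.3% of thinned wells. Lyz2 (chromosome 10, 117277331 to 117282321) stood at 223 and 715 CPM, 3.20-fold higher (2.36 to 4.41). These neighbours are near-identical, and the counting could split reads between them. Macrophage-marked wells held more than gated wells in the plate with WBRT, at 10895 CPM of Lyz1. Apobec1, a cytidine deaminase that edits RNA, stood at 260 CPM (197 to 337) and 1125 CPM (1027 to 1229), 4.33-fold higher (3.29 to 5.80), in 54.3% and 95% of gated wells and in 17.4% and 61.7% of thinned wells. Cd93, a receptor in the uptake of dying cells, stood at 178 CPM (126 to 243) and 565 CPM (496 to 640), 3.18-fold higher (2.26 to 4.58). Cd68, a lysosomal membrane protein, stood at 228 and 535 CPM, the protease gene Ctsc at 611 and 1364 CPM and the endocytic adaptor gene Dab2 at 287 and 705 CPM.

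For glycolysis and hypoxia 15 of 20 genes were higher (median 0.42), but the 3 called (15%) are a share near the 13% of all genes. The hypoxia factor Hif1a stood at 155 CPM without WBRT and 317 CPM with WBRT, the glucose transporter gene Slc2a1 at 41.0 and 94.1 CPM, and the enzyme gene Pgam1 at 242 and 512 CPM. All 3 lie just past the size limit, and Hif1a fell under it in 7 of 18 alternatives. The transcriptional repressor gene Hbp1 (13.7 and 129 CPM), on 3 UMIs without WBRT, was called higher as well. Cxcl1, a neutrophil attractant, had 0 counts without WBRT and 82.8 CPM with WBRT, at least 6.05-fold higher against a floor of 3 counts over the group, in 11.7% of wells. Of the immediate early genes 19 of 24 were lower (median -0.38), 1 of them called (4.17%, against 13% of all genes). Among 9 p53 targets, which respond to DNA damage, 5 were higher, the median was 0.28 and 0 were called. Cdkn1a, the cell cycle inhibitor among them, stood at 693 CPM (587 to 812) and 1078 CPM (984 to 1181), 1.56-fold higher (1.29 to 1.88).

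MHC class II genes had no settled direction. Of 7 tested, 6 were higher with WBRT and 0 called, with a median of 0.35. Cd74, the invariant chain, stood at 7621 and 13507 CPM, 1.77-fold higher (1.68 to 1.87), H2-Ab1 at 6378 and 8113 CPM, and the master regulator gene Ciita at 137 and 96.4 CPM. The list's median turned to -0.44 with the gate applied after thinning and to -0.13 with gated wells thinned. It was -0.01 with every well weighted alike. Among chemokine receptors, Ccr1 stood at 169 and 312 CPM and Cx3cr1 at 1251 and 791 CPM, and 0 of 9 were called. Ccr2 itself, chosen by the rule, stood 1.56-fold higher with WBRT (1.33 to 1.82), and after thinning a Ccr2 UMI remained in 71.7% of gated wells without WBRT and 63.3% with WBRT.

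**Figure D5:**
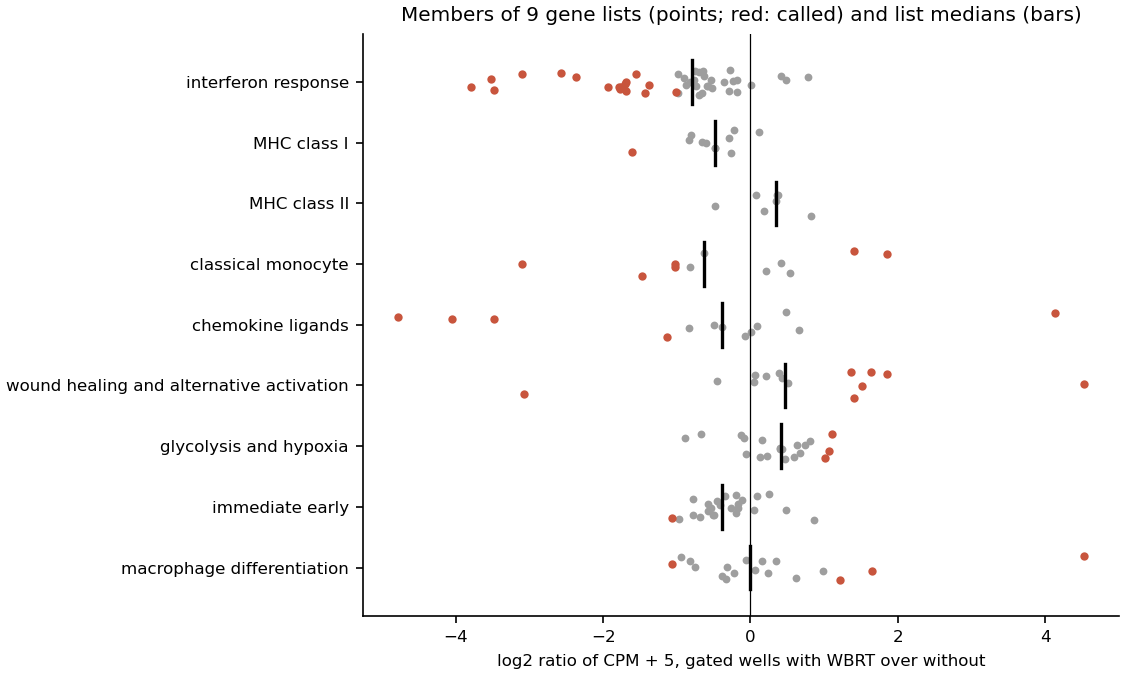
log2 ratio of CPM + 5 with WBRT over without in gated wells (x axis) for tested members of 9 gene lists outside the rule (points; red if called), with the list median as a bar. Interferon response genes have a median of -0.79 with 17 called lower, and wound healing genes one of 0.47 with 6 called higher. Of all genes tested, 6.55% were called lower and 6.42% higher.

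Several genes with very low levels in gated wells with WBRT were also present in every other class of the plate without WBRT. Fscn1, an actin-bundling protein of mature dendritic cells, stood at 205 CPM (150 to 274) in gated wells without WBRT and 2.30 CPM (1 UMI) with WBRT, 89.3-fold lower (15.2 to 3606). Without WBRT it stood at 333 CPM in macrophage-marked, 273 CPM in Ccr2-negative and 1510 CPM in dendritic-marked wells, and at 263 CPM on the microglia plate. With WBRT macrophage-marked wells held 62.4 CPM and the microglia plate 308 CPM of Fscn1. The T cell attractant gene Ccl5 stood at 260 CPM and 4.59 CPM (2 UMIs), with 133, 533 and 1412 CPM in the same classes and 763 CPM on the microglia plate. With WBRT the other BMDM classes held at most 11 CPM of Ccl5. A low level of this kind in every class can come from free RNA of a plate, and its part here was not tested. Ppfia4, a synaptic scaffold gene, stood at 105 CPM and at 0 counts, at least 15.2-fold lower against the floor of 3 counts, with 107 CPM in the other wells without WBRT. Ly6a, a surface antigen induced by interferon, stood at 210 and 13.8 CPM, 15.2-fold lower (6.48 to 43.6), with 393 and 9.63 CPM in the other wells. Cxcl9 stood at 77.6 CPM and 0 counts, but its 17 UMIs came from 2 wells.

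Genes of cDC1, the cross-presenting dendritic cells, were lower outside the limits of the gate too, and those of cDC2 lay on both sides. Of 6 tested cDC1 genes outside the rule 4 were called lower and 0 higher (66.7% called, against 13% of all genes). Their median was -1.60, against -1.68 in the other kept wells. Of 6 genes of the cDC2 and monocyte-derived dendritic list 2 were higher and 4 lower, 1 called in each direction (33.3% called). Tnip3, called higher, stood at 9.12 and 57.4 CPM on 2 and 25 UMIs. Wdfy4, required for cross-presentation, stood at 223 CPM (165 to 295) and 43.6 CPM (26.3 to 68.1), 5.12-fold lower (2.96 to 9.21), in 28.3% and 5.00% of thinned wells. Irf8, a transcription factor of monocytes and cDC1, stood at 634 and 303 CPM, 2.09-fold lower (1.64 to 2.67), Id2 at 680 and 289 CPM and Cbfa2t3 at 278 and 59.7 CPM. The natural killer receptor gene Klrk1 stood at 160 and 23 CPM, with 163 and 16.9 CPM in the other wells. The summed level of 10 cDC1 genes was 1245 and 583 CPM in gated wells, against 3930 and 2881 CPM in dendritic-marked wells, of which there were 99 and 19. The part of the share of dendritic cells on a plate in these differences was not tested.

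Kcnq1ot1, a long noncoding RNA of the nucleus, stood at 4585 and 10735 CPM, but 1 well held 47.9% of its counts with WBRT. It stood above 20000 CPM in 3 gated wells without WBRT and 5 with WBRT. Without those wells its log2 ratio turned from 1.23 to -0.28, while the counts of genes called were 259 higher and 251 lower.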

How the data were processed

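Myeloid cells were sorted into 384-well plates and processed by SingleCellDiscoveries after Muraro et al., per the labels' protocols. ERCC rows stand in the files. The genome build was GRCm38, per the submitters' processing notes; of the aligner, counter, annotation and strand handling nothing is said in the labels or headers. As deposited by the authors, the values are estimated counts (expected counts) for each gene in each well, with no scaling seen in them. All nonzero values (100%) matched, within 0.0051, whole UMIs corrected for chance coincidence among 4096 identifiers, so whole UMIs were recovered for the gate and for thinning.

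Wells were kept and gated as stated in the report; on the deposited values the gate takes 46 and 60 wells too. Counts were summed over gated wells and divided by all endogenous counts, mitochondrial ones included. Mitochondrial rows were not tested. Values have exact Poisson intervals, ratios exact conditional intervals and shares exact (Clopper-Pearson) intervals, at 95%; transcripts of 1 well are not independent, so these are too narrow for differences between conditions. With 1 plate per group no p-value was computed. A ratio is on the scale log2(CPM + 5), which understates differences of low genes; folds are ratios of CPM.

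The gated wells and the gene lists (45 lists, 627 symbols, of which 583 were found) were chosen with earlier results of these data known. To be named, a gene needed 100 CPM in 1 sum, a UMI in 20% of the wells of the plate where it was higher, and intervals that do not overlap; the 15 with the highest and the 15 with the lowest ratio were taken. For gated against other wells they were the 15 highest and 10 lowest by the smaller of the plates' ratios. Up to 5 members of each list and the genes of the gate were added. Apoe, C1qb, Csf1r, Fcgr1, Tgfbi between plates, Ms4a7, the single interferon genes Ifit3, Isg15 and Irf7, and other genes outside the rule were named after their values were seen. Gene positions came from GENCODE M21 (GRCm38) and promoters from RefSeq (GRCm38.p6). Doublets were not called on these sorted plates. Tools were Python 3.11.15 with numpy 2.4.6, pandas 2.3.3 and scipy 1.17.1, and edgeR 4.0.16 in R 4.3.3 for TMM factors, used as an alternative on counts rounded to whole numbers. The computation was tested on simulated Poisson counts of the 2 sums. There 60% of genes set 2-fold higher, 44% of genes set to 0.5-fold and 1.10% of unchanged genes were called. The simulation had no spread between wells, so it cannot show how calls fare where a few wells carry most UMIs.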

Additional observations from a re-analysis of the deposited data

Results flagged for a closer look

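For 2 genes the gated wells and the other kept BMDM wells lay in opposite directions between the plates, and this difference was not tested. Cyp4f18, a cytochrome P450 of leukocytes, had a log2 ratio with WBRT over without of -1.50 in gated wells (100 against 32.1 CPM) and 1.55 in the other wells. Ift20, a protein of intracellular transport, had -1.30 in gated wells (86.6 against 32.1 CPM) and 1.15 in the other wells. Both rest on 14 counts with WBRT in the gate, 22 (Cyp4f18) and 19 (Ift20) without WBRT, and both were named after their values were seen.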

How the results depend on the processing

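Alternatives changed 1 choice at a time; leaving out Kcnq1ot1-rich wells, the wells highest in interferon genes or the top well of a gene was chosen after seeing the data. No paired analysis was possible because each group is 1 plate. The 247 genes higher and 252 lower became 94 and 117 with gated wells thinned to 1000 UMIs and 106 and 111 among genes of at least 100 CPM; 402 were lower at 20 CPM. The gated share was 12% and 6.87% with a macrophage sum of 0 (a difference of -5.10 points), and 43.1% with WBRT when the gate followed thinning (19.6 points). The interferon median stayed below 0 under all 17 alternatives: -1.89 with a macrophage sum of 0, -1.36 without wells holding microglia markers, -1.16 with wells weighted alike, -1.13 without the 3 deepest wells, and -1.10 with the gate, or the gated wells, thinned. Wound healing stayed above 0, at 1.0 (gate thinned), 0.97 (Ccr2 of at least 2), 0.75 (macrophage sum 0), 1.07 (weighted alike), 1.10 (wells thinned), 1.13 (no microglia markers) and 1.01 (no deepest wells). MHC class II turned to -0.44 (gate thinned), -0.0089 (weighted alike) and -0.13 (wells thinned), and was 0.084 (macrophage sum 0), 0.19 (20 CPM), 0.032 (no microglia markers) and 0.13 (no deepest wells). Other list medians that turned were microglia, 0.13 (gate thinned) and 0.20 (macrophage sum 0), from -0.81; G2/M, 0.12 (macrophage sum 0) and 0.18 (wells thinned); chemokine ligands, 0.13, and cytokines, -0.18 (gate thinned); complement, 0.44 (gate thinned), 0.086 (Ccr2 of at least 2), 0.29 (macrophage sum 0) and 0.29 (no microglia markers); and nuclear noncoding RNA, -0.54 (gate thinned), -0.32 (Ccr2 of at least 2), -0.19 (macrophage sum 0), -0.068 (wells thinned), -0.28 (20 CPM) and -0.28 (without Kcnq1ot1-rich wells). Kcnq1ot1 turned to -0.54, -0.32 and -0.28 under the same gate, Ccr2 and Kcnq1ot1 settings, the 1 gene of 60 to do so. Of 43 called genes examined, 18 fell under the size limit in at least 1 alternative, and Clec4e and Kcnq1ot1 did so without their top well. The causes were not tested, except that Kcnq1ot1-rich wells carry the last value. At 3 counts the floor of the gate is 13.7 CPM without WBRT and 6.89 CPM with WBRT, so a count of 0 allows a level up to these values, folds resting on 1 to 3 counts carry wide intervals, and thinned sums hold few counts per gene.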

Other observations

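For 3 secreted proteins single wells set much of the summed level. Cxcl13, a B cell attractant, stood at 636 CPM in gated wells without WBRT and 606 CPM with WBRT, yet a UMI was seen in 29 of 46 and 4 of 60 wells. With WBRT 253 of its 256 UMIs came from 1 well, while without WBRT the median well held 216 CPM. The microglia plates held 5176 CPM without WBRT and 1862 CPM with WBRT. Saa3, an acute-phase protein, had 49 of 55 UMIs without WBRT and 102 of 105 with WBRT in 1 well each. Spp1, the matrix protein osteopontin, stood at 1556 and 1614 CPM, below the 6387 and 7550 CPM of macrophage-marked and Ccr2-negative wells without WBRT, and 115 of 339 UMIs without WBRT and 261 of 693 with WBRT came from 1 well. These genes were named after their values were seen.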
